A study of Mus musculus with 15 samples.

Results

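The genes described here are 40 genes of hepatic fatty acid oxidation and targets of the nuclear receptor PPARA, chosen by symbol from the 55573 genes of the count table and not by a cut on their values. The list was drawn up with earlier results of these data known, so shares set beside those of all genes are descriptive. The 40 genes were measured by RNA-seq in liver RNA of 15 mice, 8 weeks old, with 1 library per mouse: 3 wild type (WT) females, 3 WT males, 5 females and 4 males homozygous for the *Esr1* knockout (ESR1KO). The mice are of the strain B6N(Cg)-Esr1tm4.2Ksk/J, whose knockout allele lacks exon 3 of *Esr1*, the gene for estrogen receptor alpha, in every cell of the body, and the study describes the knockout, from earlier work, as infertile with raised testosterone in both sexes. In a global knockout an effect of the receptor in the liver and effects that reach the liver from other organs, testosterone included, cannot be told apart. The series title calls the WT controls littermates.

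Fatty acids enter hepatocytes through carriers, are bound by FABP1 in the cytosol, activated to acyl-CoA and passed into mitochondria by the carnitine shuttle. There they are shortened in the cycle of beta-oxidation, while very long and branched chains, and dicarboxylic acids made by CYP4A enzymes, are shortened in peroxisomes. Fasting raises this programme through PPARA, which binds fatty acids, pairs with RXR and sits on direct repeats of the hexamer AGGTCA, and acyl-CoA thioesterases release the fatty acid from coenzyme A again. In rodent liver several PPARA targets, among them *Cyp4a* and *Acot* genes, respond strongly to PPARA ligands, whereas the core mitochondrial enzymes are abundant and respond less.

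Total counts lay between 27799061 and 78624766 per mouse. All 40 genes passed the filter on low counts, as did 17655 of the genes in the table. Levels are given as CPM (a gene's count scaled to the size of its library, with TMM factors), differences as log2 fold changes with their standard error, and genes were called where the adjusted p was under 0.05 in edgeR's quasi-likelihood F test (Benjamini-Hochberg over the 17655 genes), with no minimum fold change. *Esr1* itself, counted over all its exons, lay between 74.7 and 88.2 CPM in WT females, 25 and 52 in WT males, 9.67 and 19.7 in ESR1KO females and 8.22 and 16.1 in ESR1KO males, so that every ESR1KO mouse was below every WT mouse. The summed level of 7 hepatocyte markers was between 82628 and 117443 CPM in every mouse, all 7 being detected in each group. These are bulk samples, in which fewer cells of a type and less RNA per cell cannot be told apart. Within groups, 2 libraries stood apart for the genes described here, WT female 1 with higher and ESR1KO female 1 with lower values, as detailed below. The counts of ESR1KO female 1 also departed from those of its group mates over all genes tested. Calls were recomputed without single mice for the 40 genes and not for the other lists.

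The level of the genes, per kilobase of exon so that genes can be compared, spanned several orders of magnitude. In WT females *Fabp1*, the fatty acid binding protein of liver, was at 5228 CPM per kb, followed by *Acaa2* (506), the last enzyme of the mitochondrial cycle, *Slc27a2* (361), a very long chain fatty acid transporter and synthetase, and *Acaa1b* (332), a peroxisomal thiolase. At the other end were *Vldlr* (0.889), the receptor for very low density lipoprotein, *Pdk4* (0.787), which switches off pyruvate oxidation, and *Fgf21* (1.13), a secreted factor of fasting. WT males had the lowest mean of the 4 groups for 20 of the 40 genes (50%), against 24.8% of all genes tested, and ESR1KO males had the highest mean for 22 (55%), against 21.8%. WT females had the highest mean for 9 and ESR1KO females for 7.

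**Figure D1:**
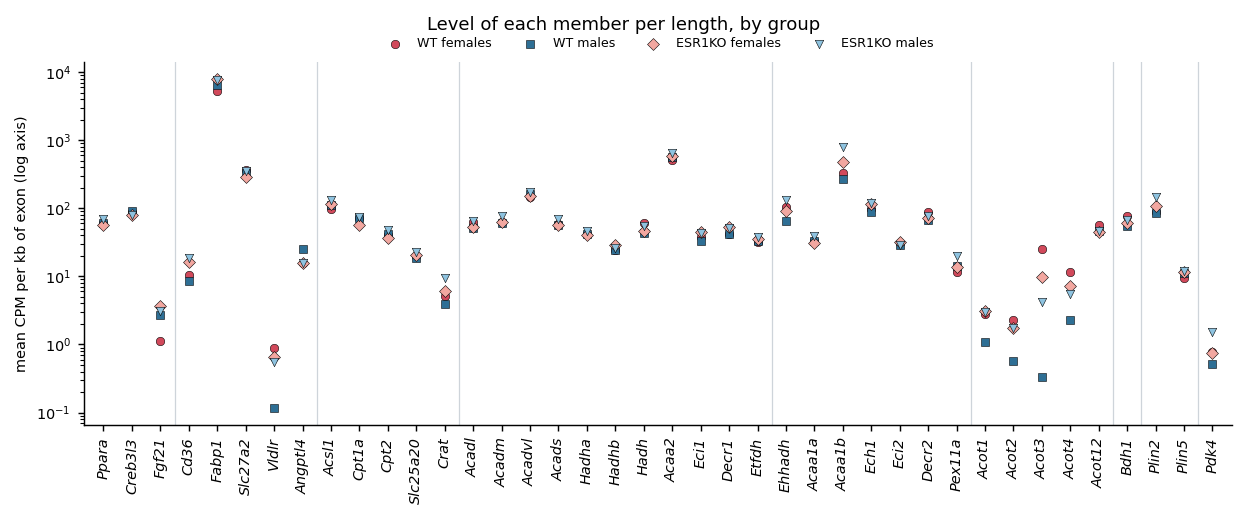
Mean level of each of the 40 genes in CPM per kb of exon on a log axis, with a symbol per group and vertical lines between functional groups. The 4 groups lie close together for most mitochondrial genes, while WT males are the lowest group for *Vldlr* and *Acot1* to *Acot4*.

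Between ESR1KO and WT males, 8 of the 40 genes (20%) were called higher and 0 lower, next to 0.833% and 0.583% of all genes tested in these directions. The 8 were *Cd36*, *Vldlr*, *Ehhadh*, *Acaa1b*, *Acot2*, *Acot3*, *Acot4* and *Pdk4*. Of the genes called or not, 37 had an estimate above 0, with a median log2 fold change of 0.29 against -0.0011 over all genes tested, and 18 had an unadjusted p under 0.05. For counts at an unadjusted p, here and below, no share over all genes is given. For 22 of the 40 genes (55%) every ESR1KO male was above every WT male, as for 8.56% of all genes, and only for *Creb3l3* did all ESR1KO males lie under all WT males, as for 7.35%. The count of calls depended on single mice. It was 4 without WT male 1, 4 without WT male 2, 3 without WT male 3, 5 without ESR1KO male 1 and 4 without ESR1KO male 3, while the median stayed between 0.25 and 0.31 over all fits that left out 1 mouse.

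In females the estimates had no common direction. Between ESR1KO and WT females, *Fabp1* was called higher and *Hadh* lower (2.5% each way, against 3.14% and 2.57% of all genes tested), 20 estimates were above 0 and 20 below, and the median was 0.0056. This count fell to 0 without WT female 2, WT female 3 or ESR1KO female 2, and to 1 without ESR1KO female 1, ESR1KO male 1 or ESR1KO male 4. Without WT female 1 the median was 0.17, and without ESR1KO female 1 it was 0.11. The difference between the genotype effect in females and that in males was tested as an interaction, which called 6 of the 40 genes with a lower effect in females, *Vldlr*, *Hadh*, *Ehhadh*, *Acot2*, *Acot3* and *Acot4*, and 0 with a higher one (0.923% and 1.02% of all genes). It called 3 without WT female 1 and 3 without WT male 2. No interaction with a higher effect in females was called for the 40 genes under any alternative run.

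**Figure D2:**
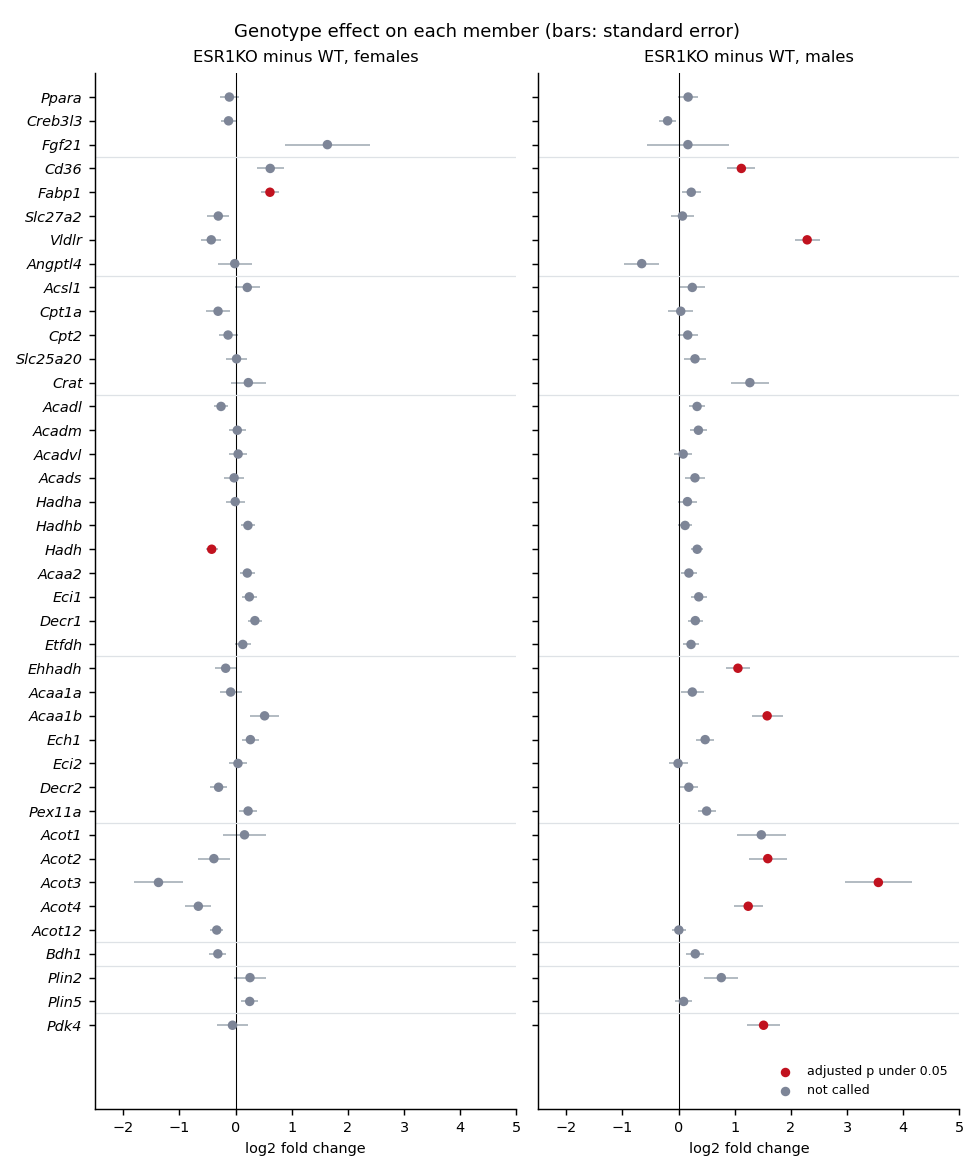
Log2 fold change of ESR1KO over WT mice for each of the 40 genes, in females (left) and males (right), with bars for the standard error and lines between functional groups. Red points mark the genes called, 2 in females and 8 in males, and 37 of the 40 estimates in males lie to the right of 0.

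Between the sexes, WT females were above WT males for 5 called genes, *Vldlr*, *Hadh*, *Acot2*, *Acot3* and *Acot4*, and below them for 0 (2.67% and 2.20% of all genes tested), with a median of 0.064. Without WT female 1 this median was -0.11, with 15 of the 40 estimates above 0 in place of 25. The summed hepatocyte markers were also higher in WT females, between 109904 and 117443 CPM against 82628 to 84437 in WT males, and *Alb*, the gene for albumin, makes up most of this sum. *Alb* was called higher in WT females (0.66 on the log2 scale), while of the 7 markers 3 estimates were above 0 and 4 below, with a median of -0.048, and the part of hepatocyte content in these results was not tested. The count of 5 was 4 without WT female 1, WT female 3, WT male 2 or WT male 3. Between ESR1KO females and ESR1KO males 0 of the 40 genes were called in edgeR (0.159% and 0.113% of all genes), 9 had an unadjusted p under 0.05, and DESeq2 called 3, *Acaa1b*, *Pdk4* and *Pex11a*, all lower in females. The median of this contrast was -0.16, with 28 estimates below 0, and -0.059 without ESR1KO female 1, with 14 above 0 in place of 12. WT females against WT males and ESR1KO against WT males use the same 3 WT males, and the former uses the same 3 WT females as ESR1KO against WT females. The interaction uses the mice of all 4 groups, and its calls include all 5 genes called between WT sexes. These contrasts are therefore not independent and their values are given side by side only.

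Since PPARA binds direct repeats of AGGTCA with 1 base between the copies, this motif was searched on both strands in the 250 bases before each gene's start in RefSeq's GRCm38.p6 annotation, where 36 of the 40 genes had at least 1 window, 42 in all. *Acaa2*, *Decr1*, *Crat* and *Angptl4* were not matched. At most 1 mismatch over both copies was found in 2 of the 42 windows (4.76%), those of *Acot12* and *Fabp1*, and in 0.484% of 32851 windows of all genes. At most 2 mismatches were found in 6 (14.3%), with *Acot4*, *Cd36*, *Creb3l3* and *Plin2* added, against 3.24%, and none of the 42 held an exact repeat (0.0335% of all). A single AGGTCA was in 11 of the 42 windows (26.2%) and in 14% of all. An inverted repeat of GGTCA with 3 bases between, the core of the motif for estrogen receptors, was in 0 of the 42 and in 0.0639% of all. Such a match is a description of letters and not a site of binding. Of the genes called below, the windows of *Fabp1* (best match 67 bases before the start, 1 mismatch), *Acot4* (13 bases, 2 mismatches) and *Cd36* (63 bases, 2 mismatches) hold the closest repeats. *Acot3*, which had the largest fold change, holds none closer than 4 mismatches and is shown to set it beside its neighbour *Acot4*. Starts are those of RefSeq, which for *Fabp1* and *Cd36* differ from the gene starts given below. Capitals mark the best match. In all 4 it is the reverse complement of these letters that was matched to the repeat, with the mismatches given above.
Fabp1, chr6:71199629-71199878, plus strand: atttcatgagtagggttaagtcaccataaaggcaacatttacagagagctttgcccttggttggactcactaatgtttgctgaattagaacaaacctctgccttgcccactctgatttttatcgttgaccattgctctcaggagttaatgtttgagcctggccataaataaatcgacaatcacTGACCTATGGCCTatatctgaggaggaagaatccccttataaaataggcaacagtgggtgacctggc
Acot4, chr12:84038129-84038378, plus strand: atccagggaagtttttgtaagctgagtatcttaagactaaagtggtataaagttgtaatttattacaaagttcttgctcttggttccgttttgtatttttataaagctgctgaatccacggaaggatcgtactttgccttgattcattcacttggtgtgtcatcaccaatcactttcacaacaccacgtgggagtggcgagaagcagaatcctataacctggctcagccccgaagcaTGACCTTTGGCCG
Cd36, chr5:17835897-17836146, minus strand: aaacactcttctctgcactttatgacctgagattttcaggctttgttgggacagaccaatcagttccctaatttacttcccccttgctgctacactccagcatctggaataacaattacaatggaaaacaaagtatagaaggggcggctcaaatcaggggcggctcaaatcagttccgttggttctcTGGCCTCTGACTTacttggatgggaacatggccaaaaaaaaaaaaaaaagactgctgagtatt
Acot3, chr12:84051894-84052143, plus strand: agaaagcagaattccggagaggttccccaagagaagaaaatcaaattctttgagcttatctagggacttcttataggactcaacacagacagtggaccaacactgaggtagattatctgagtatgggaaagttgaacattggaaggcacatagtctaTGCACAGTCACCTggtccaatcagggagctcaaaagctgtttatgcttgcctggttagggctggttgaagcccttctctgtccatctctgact

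Of the 3 regulators, 0 were called in any contrast, where 0.113% to 3.14% of all genes tested were called in each direction. The CPM of *Ppara*, the receptor itself, were 244, 223 and 238 in WT females, 227, 214 and 268 in WT males, 149, 177, 231, 263 and 269 in ESR1KO females and 285, 234, 286 and 257 in ESR1KO males. The groups overlap, with ESR1KO female 1 the lowest mouse. The log2 fold change of ESR1KO over WT was 0.17 in males and -0.11 in females. *Creb3l3*, a liver factor that acts with PPARA in fasting, was at 271 ± 9.38 CPM (SD over n = 3 mice) in WT and 237 ± 15 (SD over n = 4 mice) in ESR1KO males, with a log2 fold change of -0.20 that missed the threshold (edgeR adjusted p = 0.667). *Fgf21*, a hormone secreted by the fasted liver, had the largest SD relative to its mean among the 40 genes in WT females, with values from 0.229 to 2.60 CPM, and ranged from 0.965 to 6.62 in ESR1KO females, and its log2 fold change in females of 1.64 missed the threshold (edgeR adjusted p = 0.210).

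Among the genes of fatty acid uptake and lipoprotein handling, *Vldlr* (ENSMUSG00000024924, chromosome 19, 27216484 to 27254231, plus strand, build GRCm38) was called in 3 contrasts. It was at 8.6, 9.8 and 8.46 CPM in WT females, 1.21, 1.27 and 0.999 in WT males, 6.87, 7.28, 4.43, 6.16 and 8.33 in ESR1KO females and 5.17, 4.25, 7.11 and 5.93 in ESR1KO males. The 3 WT males lie below and the 3 WT females above all other mice, and the ESR1KO females and males overlap between them. WT females exceeded WT males 7.76-fold, a log2 fold change of 2.96 ± 0.23 (SE, edgeR adjusted p = 2.47e-07). ESR1KO males exceeded WT males by 2.29 ± 0.22 (SE, edgeR adjusted p = 4.99e-05), while in females the estimate was -0.43 and was not called (edgeR adjusted p = 0.164). The interaction was -2.72 ± 0.28 (SE, edgeR adjusted p = 2.09e-05), and none of the 3 calls was lost without any 1 mouse.

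*Cd36* (ENSMUSG00000002944, chromosome 5, 17781690 to 17888801, minus strand), a scavenger receptor that carries fatty acids, was at 45.6, 34 and 35.1 CPM in WT females, 33.6, 34.3 and 24.2 in WT males, 70.05, 58.7, 42.7, 60.1 and 61.7 in ESR1KO females and 57, 49.9, 110.0 and 49.2 in ESR1KO males. Every ESR1KO male was above every WT male, and ESR1KO male 3 was the highest mouse of all. The log2 fold change in males was 1.12 ± 0.25 (SE, edgeR adjusted p = 0.0345), and the call was lost without any of the WT males, ESR1KO male 1 or ESR1KO male 3, with the highest adjusted p, 0.202, without WT male 3. In females the estimate was 0.62 (edgeR adjusted p = 0.137). Endothelial cells and macrophages also express *Cd36*, and endothelial cells *Vldlr*. Summed over 6 markers, endothelial genes were between 299 and 411 CPM in WT and 378 and 465 in ESR1KO males. Over 6 markers, macrophage genes were between 304 and 324 CPM in WT and 244 and 316 in ESR1KO males. In either list 0 of the 6 were called in males (0.833% and 0.583% of all genes). The part of these cells in the results was not tested.

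*Fabp1* (ENSMUSG00000054422, chromosome 6, 71199827 to 71205023, plus strand), shown above with its promoter, was the gene called higher in ESR1KO than WT females. It was at 3809, 2487 and 2378 CPM in WT females and 5047, 4567, 4161, 4507 and 3814 in ESR1KO females, next to 4016, 3231 and 3635 in WT males and 3985, 4804, 4214 and 3955 in ESR1KO males. WT female 1 lay just below the lowest ESR1KO female, and WT females 2 and 3 lay well below every other mouse. ESR1KO females exceeded WT females by 0.61 ± 0.17 (SE, edgeR adjusted p = 0.0396) on the log2 scale, and the call was lost in 8 of the 15 fits without 1 mouse, those without WT females 2 or 3, ESR1KO females 1, 2 or 4, or ESR1KO males 1, 3 or 4. The interaction was not called (0.39, edgeR adjusted p = 0.457). *Slc27a2* was not called, at 1248 ± 77.1 CPM (SD over n = 3 mice) in WT and 1308 ± 143 (SD over n = 4 mice) in ESR1KO males. *Angptl4*, a secreted inhibitor of lipoprotein lipase and a PPARA target, had its estimate below 0 in males, -0.66 (edgeR adjusted p = 0.432), as did *Creb3l3* and *Eci2* alone among the others.

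Of the 5 genes of activation and the carnitine shuttle, 0 were called in any contrast (0.113% to 3.14% of all genes in each direction). All 5 estimates in males were above 0, at 0.24 for *Acsl1*, the acyl-CoA synthetase, 0.038 for *Cpt1a*, the rate-limiting carnitine palmitoyltransferase, 0.16 for *Cpt2*, its partner in the inner membrane, 0.29 for *Slc25a20*, the carnitine carrier, and 1.27 for *Crat*, carnitine acetyltransferase. *Crat* had the largest of these, from 21.4 ± 2.51 CPM (SD over n = 3 mice) in WT males to 51.5 ± 7.69 (SD over n = 4 mice) in ESR1KO males, with every ESR1KO male above every WT male. Its adjusted p was 0.0792 in edgeR, and DESeq2 gave 0.0475. In WT females, *Crat* was at 50.1 CPM in mouse 1 and at 16.4 and 17.6 in mice 2 and 3.

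Of the 11 mitochondrial beta-oxidation genes 0 were called between ESR1KO and WT males, next to 0.833% higher and 0.583% lower of all genes tested. All 11 estimates were above 0, between 0.081 for *Acadvl* and 0.36 for *Eci1*. *Acadl* (0.33) and *Acadm* (0.35), the long and medium chain acyl-CoA dehydrogenases, *Hadh*, *Eci1*, an enoyl-CoA isomerase, and *Decr1*, a dienoyl-CoA reductase, had an unadjusted p under 0.05 in males, while *Acads*, *Hadha*, *Hadhb*, *Acaa2* and *Etfdh*, the short chain dehydrogenase, the 2 subunits of the trifunctional protein, the thiolase and the electron transfer dehydrogenase, did not. The 1 gene of this group called in other contrasts was *Hadh* (ENSMUSG00000027984, chromosome 3, 131233419 to 131272101, minus strand), the 3-hydroxyacyl-CoA dehydrogenase for short and medium chains. It was at 331, 291 and 301 CPM in WT females, 228, 205 and 217 in WT males, 189, 229, 247, 230.1 and 250.3 in ESR1KO females and 263, 253, 299 and 273 in ESR1KO males. WT males and ESR1KO females lie low, and WT females high, with no WT female as low as any WT male or ESR1KO female. The log2 fold change was 0.51 ± 0.12 (SE, edgeR adjusted p = 0.0181) for WT females over WT males and -0.43 ± 0.11 (SE, edgeR adjusted p = 0.0272) for ESR1KO over WT females. In ESR1KO over WT males it was 0.33 (edgeR adjusted p = 0.197), and the interaction was -0.75 ± 0.15 (SE, edgeR adjusted p = 0.0138). The call between WT sexes was lost without WT female 1 or 3 or WT male 2 or 3, that in females without any WT female or ESR1KO female 2, and that of the interaction without WT female 1 or WT male 2. With no filter on low counts all 3 were lost, with edgeR adjusted p of 0.0991, 0.0939 and 0.0558 in this order. Of the 50-base stretches of *Hadhb*, 19.7% occur in other genes, chiefly *Gm13910*, and 42.9% of the exon bases of *Acadvl* lie over *Dvl2* on the other strand, so that these 2 genes' counts carry that uncertainty.

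In the peroxisomal group, *Ehhadh* and *Acaa1b* were called in males. *Ehhadh* (ENSMUSG00000022853, chromosome 16, 21761287 to 21787807, minus strand), the bifunctional enzyme of the peroxisomal cycle, was at 393, 247 and 295 CPM in WT females, 222, 183 and 175 in WT males, 193, 327, 286, 282 and 290.2 in ESR1KO females and 386, 306, 545 and 368 in ESR1KO males. Every ESR1KO male was above every WT male, and ESR1KO male 3 was the highest of all mice, while ESR1KO female 1 was far below the other ESR1KO females. The log2 fold change in males was 1.06 ± 0.21 (SE, edgeR adjusted p = 0.0164), lost without WT male 2, WT male 3 or ESR1KO male 3. In females it was -0.18, and the interaction was -1.23 ± 0.28 (SE, edgeR adjusted p = 0.0305), lost without WT female 1 or 3, WT male 2 or 3, or ESR1KO male 1 or 3. *Acaa1b* (ENSMUSG00000010651, chromosome 9, 119148023 to 119157093, minus strand), a thiolase, was at 832, 502 and 618 CPM in WT females, 649, 495 and 451 in WT males, 533, 863, 886, 1349.6 and 1024 in ESR1KO females and 1452, 1279.5, 2175 and 1431 in ESR1KO males. ESR1KO males were 2.98-fold higher than WT males, a log2 fold change of 1.58 ± 0.27 (SE, edgeR adjusted p = 0.00678), and no ESR1KO male was as low as any WT male. Without WT male 3 the adjusted p was 0.0573. *Acaa1b* shares 30.5% of its 50-base stretches with *Acaa1a*, a thiolase of the same kind on chromosome 9, and 11.4% of its exon bases lie over *Dlec1* on the other strand. *Acaa1a* was not called, and its log2 fold change in males was 0.24. *Ech1* (0.47) and *Pex11a* (0.50), an isomerase and a factor of peroxisome proliferation, had an unadjusted p under 0.05 in males, whereas *Eci2* (-0.011) and *Decr2* (0.18), an isomerase and a reductase for unsaturated chains, did not.

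The acyl-CoA thioesterases held the largest changes. *Acot1* to *Acot4* lie within 83987861 to 84060402 on the plus strand of chromosome 12, and *Acot12* is on chromosome 13. *Acot3* (ENSMUSG00000021228, chromosome 12, 84052144 to 84060402, plus strand), a peroxisomal thioesterase, was at 144, 56 and 58.3 CPM in WT females, 0.963, 0.293 and 2.22 in WT males, 25.2, 24.6, 27.4, 17.8 and 71 in ESR1KO females and 19.3, 16.4, 11.4 and 11.1 in ESR1KO males. The 3 WT males are lower than all other mice and only ESR1KO female 5 reaches the range of the WT females. WT females exceeded WT males 70.1-fold, a log2 fold change of 6.13 ± 0.66 (SE, edgeR adjusted p = 1.14e-05). ESR1KO males exceeded WT males 11.8-fold, 3.56 ± 0.60 (SE, edgeR adjusted p = 0.00528), while in females the estimate was -1.37 (edgeR adjusted p = 0.0793). The interaction was -4.93 ± 0.74 (SE, edgeR adjusted p = 0.000911), and none of the 3 calls was lost without any 1 mouse. Part of its sequence (19.1% of 50-base stretches) is shared, chiefly with *Gm49366*, which overlaps it on the same strand, and 9.08% of its exon bases lie over the antisense gene *4732463B04Rik*, which also covers 9.21% of those of *Acot4*.

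*Acot4* (ENSMUSG00000052392, chromosome 12, 84038379 to 84048601, plus strand), which lies next to *Acot3* and is a peroxisomal thioesterase for succinyl-CoA and dicarboxylic acids, was at 98.6, 62.1 and 67.7 CPM in WT females, 13.3, 9.02 and 24 in WT males, 49.8, 46.5, 43.2, 39 and 61.8 in ESR1KO females and 43.4, 36.5, 33.9 and 32.8 in ESR1KO males. The WT males were again the lowest mice, the WT females the highest, and the ESR1KO groups overlapped. *Acot4* differed by 2.30 ± 0.28 (SE, edgeR adjusted p = 4.39e-05) on the log2 scale between WT females and males and 1.24 ± 0.26 (SE, edgeR adjusted p = 0.0220) between ESR1KO and WT males. The latter call was lost without WT male 1, WT male 2 or ESR1KO male 1. In females it was -0.66 (edgeR adjusted p = 0.104), and the interaction was -1.90 ± 0.35 (SE, edgeR adjusted p = 0.00574).

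*Acot2* (ENSMUSG00000021226, chromosome 12, 83987861 to 83993873, plus strand), the mitochondrial form, was at 7.45, 3.71 and 3.87 CPM in WT females, 1.26, 1.32 and 1.24 in WT males, 1.71, 4.27, 3.81, 4.75 and 4.68 in ESR1KO females and 3.36, 2.82, 5.38 and 3.64 in ESR1KO males. The 3 WT males were nearly equal and lower than all other mice, and ESR1KO female 1 was the lowest of the rest. Its log2 fold change was 1.98 ± 0.35 (SE, edgeR adjusted p = 0.00223) between WT females and males and 1.59 ± 0.34 (SE, edgeR adjusted p = 0.0261) between ESR1KO and WT males, the latter lost without any WT male, ESR1KO male 1 or ESR1KO male 3. The interaction was -1.97 ± 0.44 (SE, edgeR adjusted p = 0.0272), lost without WT female 1, any WT male or ESR1KO male 3. *Acot1*, the cytosolic form, was at 22, 4.75 and 6.03 CPM in WT females, 4.89, 3.62 and 4.07 in WT males, 8.6, 8.85, 9.98, 13.6 and 20.1 in ESR1KO females and 8.49, 13.9, 13.1 and 10.9 in ESR1KO males. It was not called, with 1.47 in males (edgeR adjusted p = 0.126), although every ESR1KO male was above every WT male. *Acot2* shares 24.5% of its 50-base stretches with *Acot1*, so that reads may be split between them. *Acot12*, the cytosolic acetyl-CoA thioesterase on chromosome 13, was at 155 ± 3.9 CPM (SD over n = 3 mice) in WT males and 155 ± 14.9 (SD over n = 4 mice) in ESR1KO males.

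The last genes act beside the oxidation cycles. *Pdk4* (ENSMUSG00000019577, chromosome 6, 5483351 to 5496309, minus strand), the kinase that inhibits pyruvate dehydrogenase when fat is burned, was at 3.58, 2.1 and 2.61 CPM in WT females, 1.38, 2.05 and 2.09 in WT males, 2.73, 2.54, 2.37, 3.55 and 2.17 in ESR1KO females and 5.39, 2.5, 6.76 and 6.42 in ESR1KO males. ESR1KO males 1, 3 and 4 were above all other mice, and ESR1KO male 2 was above every WT male. In males its log2 fold change was 1.51 ± 0.30 (SE, edgeR adjusted p = 0.0156), lost without WT male 1, WT male 3 or ESR1KO male 3. The interaction was -1.57 and missed the threshold (edgeR adjusted p = 0.0574), as did ESR1KO females against ESR1KO males (-0.98, edgeR adjusted p = 0.0943). *Bdh1*, the ketone body dehydrogenase, was at 215 ± 14.2 CPM (SD over n = 3 mice) in WT and 264 ± 9.87 (SD over n = 4 mice) in ESR1KO males and was not called. Of the lipid droplet proteins, *Plin2* had a log2 fold change of 0.76 in males (edgeR adjusted p = 0.299), with every ESR1KO male above every WT male, and *Plin5* of 0.089, with no call.

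**Figure D3:**
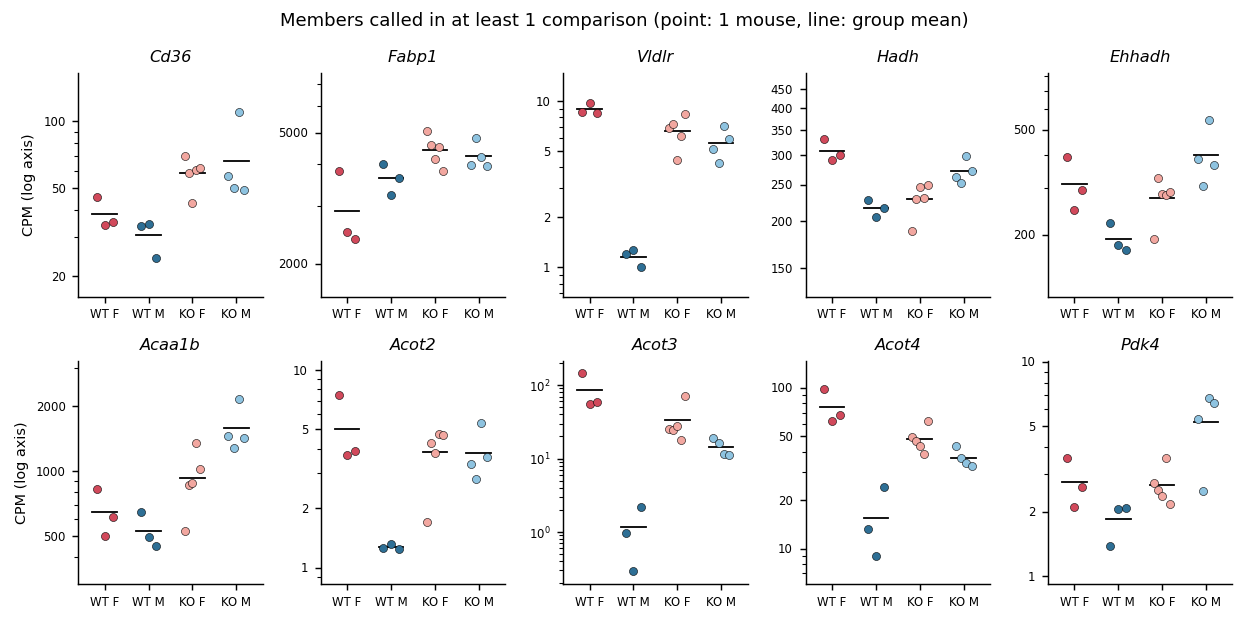
CPM of the 10 genes called in at least 1 contrast on a log axis, with a point per mouse and a line for the group mean (WT F, WT females; WT M, WT males; KO, ESR1KO). The WT males are the lowest points for *Vldlr*, *Acot2*, *Acot3* and *Acot4*, and 1 ESR1KO male stands high for *Cd36* and *Ehhadh*.

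Mice of a group differed in these genes together. WT female 1 had the highest value of the 3 WT females for 37 of the 40 genes, with a median of 0.46 on the log2 scale above the mean of its group mates, against -0.0049 over all genes tested. Scaling keeps this median over all genes near 0 in every mouse (-0.019 to 0.017). It cannot show whether a departure is confined to the 40 genes. WT female 2 was the lowest for 32. ESR1KO female 1 was the lowest of 5 for 28 genes, with a median of -0.53, and lay over 1.5-fold below its group mates for 17. Its departure from ESR1KO females 3, 4 and 5 was not limited to the 40 genes. Over all genes tested, its chi-square per gene (squared count difference relative to counting noise) was 68.4, 237, 406 and 302 against ESR1KO females 2, 3, 4 and 5. Pairs within the WT groups and the ESR1KO males lay between 24.7 and 69.8. Pairs among ESR1KO females 2 to 5 lay between 71.7 and 207, so the spread of this group is not that of mouse 1 alone. ESR1KO females 1 and 2 were its closest pair. ESR1KO male 3 was the highest of 4 for 24 genes, with a median of 0.17. The sources used here give neither the time of day nor the feeding state of these mice at collection. Over 10 genes of fed-state lipogenesis, WT female 1 had a median of -1.0 relative to its group mates and WT female 2 of 1.13, while over 11 genes of the response to fasting and glucocorticoids the 2 mice were at -0.14 and 0.40. For ESR1KO female 1 these medians were -0.22 and 0.49, and 16 clock genes were at 0.065. Clock genes peak at different times of day, so their median cannot show a shift in time. Among them, ESR1KO female 1 was the lowest of its group for *Dbp* (82.5 CPM) and *Nr1d1* (19.6). It was the highest for *Per1* (32.2) and within the range of its group mates for *Arntl* (1.59). The part of feeding state or time of day in these differences was not tested.

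**Figure D4:**
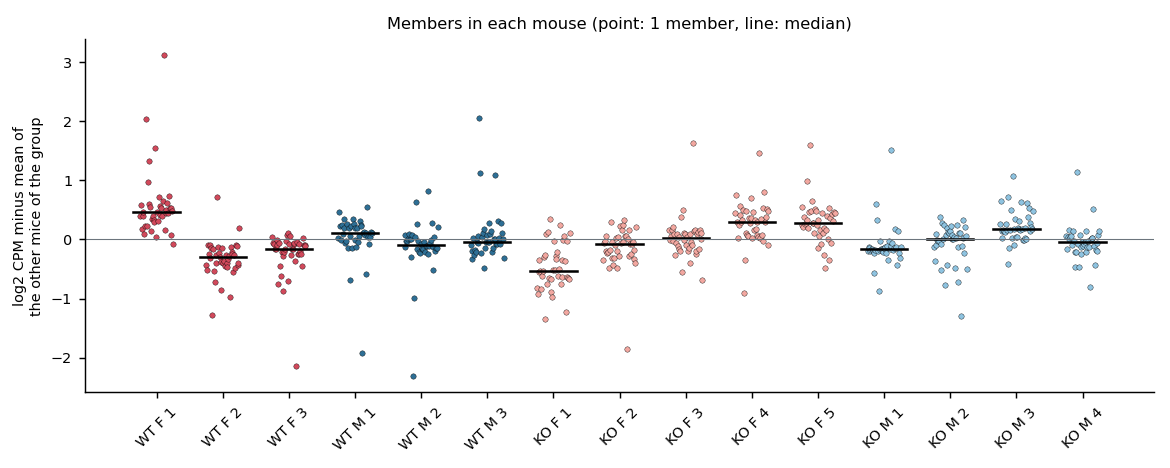
Log2 CPM of each of the 40 genes in each mouse minus the mean of the other mice of its group, with a point per gene and a line for the median (F, female; M, male; KO, ESR1KO). WT female 1 has a median of 0.46 and ESR1KO female 1 of -0.53, and the medians of the WT males lie between -0.088 and 0.10.

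Of 92 further genes of the pathway, 85 were tested. In ESR1KO over WT males, 6 were called higher and 0 lower (7.06% and 0%, against 0.833% and 0.583% of all genes tested), with a median of 0.20 and 68 estimates above 0. In ESR1KO over WT females, 10 were higher and 0 lower (11.8% and 0%, against 3.14% and 2.57% of all genes), with a median of 0.064. WT females against WT males had 4 higher and 6 lower (4.71% and 7.06%, against 2.67% and 2.20% of all genes). The interaction had 3 and 4 (3.53% and 4.71%, against 1.02% and 0.923%). ESR1KO females against ESR1KO males had 0 (0.159% and 0.113% of all genes), with 24 at an unadjusted p under 0.05. *Cyp4a10*, an omega-hydroxylase and PPARA target, was at 483, 45.2 and 127 CPM in WT females, 4.74, 2.0 and 6.6 in WT males, 61.2, 154, 89.5, 182 and 346 in ESR1KO females and 97.5, 151, 197 and 122 in ESR1KO males. The WT males were far below all other mice, and the log2 fold change in males was 4.98 ± 0.79 (SE, edgeR adjusted p = 0.00384). *Abcd2*, a peroxisomal transporter of very long chain acyl-CoA, was at 175, 127 and 105 CPM in WT females, 8.15, 15.9 and 32.9 in WT males, 87.3, 89.6, 82.7, 93.5 and 76.7 in ESR1KO females and 70.8, 53.5, 62 and 48.8 in ESR1KO males, with 1.62 ± 0.32 (SE, edgeR adjusted p = 0.0151) in males. The 4 groups of *Abcd2* do not overlap.

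The genes *Scp2*, *Fitm1*, *Cyp4a12a* and *Cyp4a12b* of this list were called lower in WT females than WT males and higher in ESR1KO than WT females. *Scp2*, the sterol carrier with peroxisomal thiolase activity, was at 1252 ± 179 CPM (SD over n = 3 mice) in WT females and 3798 ± 273 (SD over n = 5 mice) in ESR1KO females, which differed by 1.60 ± 0.15 (SE, edgeR adjusted p = 4.47e-06) on the log2 scale. WT males were at 4362 ± 424 (SD over n = 3 mice) and ESR1KO males at 3961 ± 585 (SD over n = 4 mice). *Fitm1*, a protein of lipid droplet formation, rose in females by 2.60 ± 0.32 (SE, edgeR adjusted p = 7.45e-05) on the log2 scale, and in males its estimate was 1.19 (edgeR adjusted p = 0.0567). *Cyp4a12a* and *Cyp4a12b*, neighbouring omega-hydroxylases that can share reads, were at 0.564 ± 0.565 and 0.0844 ± 0.0705 CPM (SD over n = 3 mice) in WT females and at 111 ± 19.7 and 16.4 ± 5.77 (SD over n = 5 mice) in ESR1KO females. In WT and ESR1KO males they lay between 116 and 168 and between 20.8 and 32.5 CPM, and they were not called between these groups. The log2 fold changes in females were 7.64 ± 0.42 (SE, edgeR adjusted p = 6.48e-09) for *Cyp4a12a* and 7.59 ± 0.43 (SE, edgeR adjusted p = 8.07e-09) for *Cyp4a12b*.

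**Figure D5:**
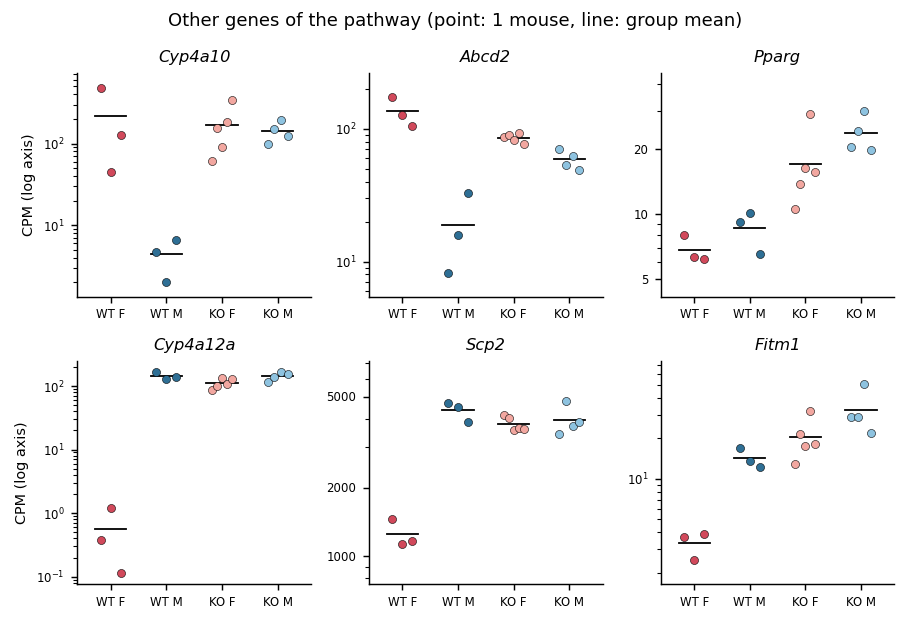
CPM on a log axis of 5 further pathway genes and *Pparg*, with a point per mouse and a line for the group mean. WT males are low for *Cyp4a10* and *Abcd2*, WT females are low for *Cyp4a12a*, *Scp2* and *Fitm1*, and both ESR1KO groups lie above both WT groups for *Pparg*.

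Among 24 partners and relatives of PPARA, *Pparg*, the receptor that drives fat storage, was called higher in both sexes. It was at 8.02, 6.34 and 6.23 CPM in WT females, 9.24, 10.1 and 6.53 in WT males, 10.6, 13.8, 16.3, 29.2 and 15.7 in ESR1KO females and 20.6, 24.4, 29.99 and 19.9 in ESR1KO males. Every ESR1KO mouse was above every WT mouse, with log2 fold changes of 1.32 ± 0.27 (SE, edgeR adjusted p = 0.00779) in females and 1.46 ± 0.27 (SE, edgeR adjusted p = 0.0110) in males. *Ppard* (-0.59) and *Ncoa2* (-0.34), a related receptor and a coactivator, were called lower in females, with -0.090 and -0.20 in males. Of the 24, 4.17% were thus called higher and 8.33% lower in females, against 3.14% and 2.57% of all genes. In males the shares were 4.17% and 0%, against 0.833% and 0.583%. The interaction was called for 0 of the 24 (1.02% and 0.923% of all genes), with 3 at an unadjusted p under 0.05. Of 11 genes of fasting and glucocorticoids 0 were called in any contrast in edgeR (0.113% to 3.14% of all genes in each direction), with 2 to 4 at an unadjusted p under 0.05. Of 16 clock genes *Bhlhe41* was lower in WT females than WT males (-1.81, 6.25% against 2.20% of all genes). *Per3* was lower in ESR1KO than WT females (-0.59, 6.25% against 2.57%). In males 0 of the 16 were called (0.833% and 0.583% of all genes), with 3 at an unadjusted p under 0.05. Of 10 genes of fed lipogenesis, 3 were called higher in ESR1KO than WT males (30%, against 0.833% of all genes), *Scd1* (1.89), *Pnpla3* (4.11) and *Me1* (1.65), all 10 estimates were above 0, and the median was 1.47. Beside the males' results, 5 adipocyte markers were summed. Their level was between 0.824 and 1.34 CPM in WT and between 3.11 and 19.4 in ESR1KO males. Most of it came from *Cidec*, which is also in the list of further pathway genes, and, in ESR1KO males, from *Cfd*. Mean *Cidec* was 1.07 CPM in WT and 4.77 in ESR1KO males, and mean *Cfd* 0.0538 and 3.31. Only these 2 of the 5 were tested. *Cfd* was called higher (5.86), and *Cidec* was not called (2.18, edgeR adjusted p = 0.0507). *Adipoq*, which defines adipocytes, was at 0.0782 CPM or less in every mouse. Of 5 cholangiocyte markers, *Krt19* (1.23) and *Epcam* (0.95) were called higher in ESR1KO males (40%, against 0.833% of all genes). Their means were 0.542 and 0.664 CPM in WT and 1.26 and 1.27 in ESR1KO males. *Krt7* (0.56), *Spp1* (0.13) and *Sox9* (-0.28) were not called. The summed level, mostly *Spp1*, was between 34.0 and 55.6 CPM in WT and 41.3 and 59.3 in ESR1KO males. Of 7 hepatocyte, 6 stellate cell, 6 lymphocyte and 5 red blood cell markers 0 were called in males (0.833% and 0.583% of all genes). The summed hepatocyte markers, mostly *Alb*, were between 82628 and 84437 CPM in WT and 91866 and 103116 in ESR1KO males, with every ESR1KO male above every WT male, and of the 7 estimates 3 were above 0 and 4 below, with a median of -0.060. Of 5 pancreas markers the 1 tested, *Cela1*, was called lower (summed level 12.8 to 16.7 CPM in ESR1KO and 26.5 to 35 in WT males). The part of these cell types in the results was not tested.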

How the data were processed

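Liver RNA of 15 mice was sequenced after depletion of ribosomal RNA, on paired-end libraries. Per the labels and the study's methods, the authors trimmed reads (Trimmomatic 0.36), aligned them with STAR to GRCm38 and deposited raw counts per gene from HTSeq (0.6.0 in the submitters' processing notes). Whether counting used strand, and which libraries were sequenced a second time for more reads, is not given in the sources used here. Groups came from the labels of sex and genotype. Nothing in the labels ties the samples to litters, although the series title calls the WT controls littermates. Litter could therefore not be modelled, and p-values measure the spread between these mice, treated as independent.

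Counts of 55573 genes were read as deposited, genes with low counts were removed with filterByExpr over the 4 groups (17655 kept), and libraries were scaled by TMM. A model with 1 mean per group was fitted to all 15 libraries in edgeR 4.0.16 (R 4.3.3), with quasi-likelihood F tests of 5 contrasts and Benjamini-Hochberg adjustment over all genes tested, called at an adjusted p of 0.05. Total counts were 27799061 to 78624766 per mouse, and replicates differed beyond counting noise (chi-square per gene 24.72 to 405.7), so none was a copy of another. The 40 genes and all other lists were chosen with earlier results of these data known. Members were named in full where called in at least 1 contrast, and of each other list at most the 6 genes with the smallest adjusted p, except where single calls are named. *Ppara* and *Acot1* were added in full after their values were seen. CPM per kb used the union of exons in GENCODE vM21. Alternatives were DESeq2 1.42.0, other scalings and filters, fold change minimums of 1.5 and 0.58 (log2), a replicate block, the compared groups alone and each mouse left out. No authors' fold changes were used.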

Additional observations from a re-analysis of the deposited data

Results flagged for a closer look

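By the interaction of sex and genotype in edgeR's quasi-likelihood test, 6 of the 40 genes responded to the knockout differently in females and males. The log2 fold change in females exceeded that in males by -4.929 for *Acot3*, -2.722 for *Vldlr*, -1.973 for *Acot2*, -1.902 for *Acot4*, -1.232 for *Ehhadh* and -0.755 for *Hadh* (negative where the females' value was lower). The adjusted p values, and any mice without which a call was lost, are given beside each gene above. The interaction shares its mice with the other contrasts and is not separate from them.

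Single mice lay far from their group for 3 of 80 groups of 4 or 5 mice checked by Dixon's test on log2 CPM, where chance flags about 1 in 20. ESR1KO female 1 was the lowest of 5 for *Ehhadh*, with a gap to the next mouse of 0.719 of the group's range, and for *Acot2*, with 0.782. ESR1KO male 3 was the highest of 4 for *Pex11a*, with 0.925.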

How the results depend on the processing

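All 21 calls kept their direction under every alternative run, and all 21 stayed past the threshold with DESeq2's test, DESeq2's size factors, total counts alone and a filter of CPM of at least 1 in 3 libraries. The count of the 40 genes called between ESR1KO females and males was 3 with no filter and 3 in DESeq2 in place of 0 (with no filter the 3 calls of *Hadh* in other contrasts were lost), and 0 to 1 without single mice. Between ESR1KO and WT females it was 0 with a minimum log2 fold change of 1.5, 1 with 0.58 and 0 with only the groups compared, in place of 2, and 0 to 3 without single mice. Between ESR1KO and WT males it was 5 with a minimum of 1.5 and 11 with only the groups compared, which loses *Cd36* and adds *Crat*, *Pex11a*, *Ech1* and *Acot1*, in place of 8, and 3 to 10 without single mice, and the interaction gave 3 to 7 and the WT sexes 4 to 7. The cause of these differences was not tested. Same-numbered mice did not deviate together (r from -0.195 to 0.14 in 13 pairs, 3 of them best with their own number), and the main model did not pair them. With so few mice per group this cannot exclude a shared litter or day of collection. With the replicate number as a block the count was 4 in females, 4 in males, 4 for the interaction, 5 between WT sexes and 0 between ESR1KO sexes. The count of genes with every ESR1KO male above every WT male was 22 under total counts and under DESeq2's size factors too, alternatives added after the data were seen. Of all genes tested, 28 were higher and 20 lower in ESR1KO females than ESR1KO males, and 55 and 17 with total counts alone.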
